A study of Homo sapiens and Mus musculus with 20 samples.

Results

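The genes described here are 10 secreted matrix glycoproteins and proteoglycans, namely FN1, THBS1, TNC, POSTN, FBN1, ELN, DCN, LUM, BGN and AEBP1. They were taken by symbol from the gene lists of 12 libraries of IMR90 cells and are 10 of the 17554 genes listed in at least 1 of 3 experiments. All 10 were listed in the A485 and MS-275 experiments and 9 in the pyruvate experiment, in which ELN was not analysed here. AEBP1 was selected on its rise with pyruvate in these same libraries, so the values of the pyruvate comparison are given as a description. No p-value is given for it. Thresholds of a call only sort genes there, and a call of a member with pyruvate is no evidence of a change. The other members were chosen by their role in the matrix, but with earlier results of these data known. The counts and p-values of the A485 and MS-275 comparisons carry that limit.

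The matrix around a fibroblast is built from fibrous proteins, from glycoproteins that link them to cells, and from proteoglycans, whose protein cores carry sugar chains. FN1 encodes fibronectin, which cells assemble into a fibrillar network and bind through integrins. THBS1 (thrombospondin 1), TNC (tenascin C) and POSTN (periostin) are matricellular proteins, which modulate adhesion and signalling more than they bear load. FBN1 (fibrillin 1) forms microfibrils, on which ELN (elastin) is laid down. DCN (decorin), LUM (lumican) and BGN (biglycan) are small leucine-rich proteoglycans, and the first of them is known for binding collagen fibrils and TGF-β. AEBP1 encodes a secreted collagen-binding protein, also called ACLP, that is needed for the strength of connective tissue.

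IMR90 is a diploid fibroblast line from human fetal lung, and all 12 libraries carried the wild-type label. Each of 6 groups had 2 libraries. A485, an inhibitor of the acetyltransferases p300 and CBP, was compared with the untreated group Control2. MS-275, which inhibits the class I histone deacetylases, was compared with Control3, and pyruvate with Control6. The study describes pyruvate as given to senescent IMR90 cells, that is, cells grown until they stop dividing. The study asked how enzymes that add or remove histone marks, and the metabolites that feed them, alter gene expression in aging cells. The labels do not say that the replicates were separate cultures, so p-values measure the spread between these libraries, which may be technical.

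Between 24179065 and 46971227 reads per library fell in listed genes. Values are read counts divided by 1 size factor per library, called normalised counts here, and each experiment was normalised on its own. A call here needs an adjusted p under 0.05 (limma, Benjamini-Hochberg adjustment over all genes tested) and a log2 fold change beyond 1 in either direction. All 10 fibroblast markers checked, among them COL1A1, COL3A1, VIM and PDGFRA, had values in each experiment. Of 8 epithelial, 6 endothelial and 7 immune markers, at most 5, 4 and 2 had values in an experiment. The summed immune level was at most 46.3 normalised counts in any library, against 447087 or more for the fibroblast markers.

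Promoter sequences are shown for POSTN, TNC, THBS1 and BGN, because all 4 genes fell with A485 and POSTN and BGN were also among the genes with the largest fold changes with pyruvate. They are the 250 bases before the start in RefSeq (GRCh38.p14), written 5′ to 3′ on the strand of the gene. Capitals mark matches, on either strand, to TATAA, to the GC box GGGCGG, to the CCAAT box and to the AP-1 motif TGANTCA. The order below is by GC content.
POSTN, chr13:37598769-37599018, minus strand, 36.4% GC: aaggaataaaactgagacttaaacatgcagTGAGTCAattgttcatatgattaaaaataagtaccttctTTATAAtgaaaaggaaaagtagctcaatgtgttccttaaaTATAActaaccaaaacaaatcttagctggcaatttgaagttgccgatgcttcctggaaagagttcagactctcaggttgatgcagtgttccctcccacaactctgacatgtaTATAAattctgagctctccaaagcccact
TNC, chr9:115118158-115118407, minus strand, 54.8% GC: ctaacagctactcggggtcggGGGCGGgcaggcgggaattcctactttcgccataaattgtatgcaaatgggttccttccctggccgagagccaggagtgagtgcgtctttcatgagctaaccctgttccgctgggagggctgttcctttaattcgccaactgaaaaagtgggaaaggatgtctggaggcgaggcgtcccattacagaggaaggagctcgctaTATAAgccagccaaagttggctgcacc
THBS1, chr15:39580829-39581078, plus strand, 69.6% GC: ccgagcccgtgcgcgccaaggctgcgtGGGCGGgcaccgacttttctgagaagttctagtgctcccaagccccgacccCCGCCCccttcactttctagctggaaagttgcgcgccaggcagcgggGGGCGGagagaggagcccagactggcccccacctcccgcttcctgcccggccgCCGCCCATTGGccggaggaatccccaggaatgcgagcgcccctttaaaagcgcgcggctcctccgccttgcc
BGN, chrX:153494730-153494979, plus strand, 74.0% GC: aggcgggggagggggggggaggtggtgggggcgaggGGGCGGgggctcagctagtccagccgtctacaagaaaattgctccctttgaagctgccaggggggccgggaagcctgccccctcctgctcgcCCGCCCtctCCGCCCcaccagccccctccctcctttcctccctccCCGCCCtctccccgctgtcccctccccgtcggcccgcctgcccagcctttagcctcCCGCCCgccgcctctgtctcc

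Promoter sequences matched 6 of the 10 genes, and ELN, LUM, DCN and AEBP1 did not match. The promoters of POSTN and TNC held TATAA at 29 and 27 bases before the start, and that of FN1 at 28 bases. TATAA was in 18.9% of 35116 promoters of this length. GGGCGG was in 42.6% of promoters, and in those of FN1, BGN, THBS1 and TNC. In the promoter of THBS1 a GC box and a CCAAT box adjoin. CCAAT was in 32.0% of promoters, FN1 and THBS1 among them. TGANTCA, which was in 6.57% of promoters, was in that of POSTN. No motif of the 4 searched was thus in all 4 promoters shown, and those of POSTN and BGN had none in common.

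Levels of the genes spanned a wide range before treatment, and only levels per kilobase of transcript are compared between genes. In the Control2 libraries FN1 (chr2:215360440-215436073) stood at 71919 ± 18462 normalised counts per kilobase (SD, n = 2). THBS1 and DCN followed at 17684 ± 6083 and 12976 ± 2899 per kilobase, and their ranges overlapped. FBN1, LUM, TNC, POSTN and BGN lay between 3783 and 2639 per kilobase on average, and each overlapped the next in that order. ELN followed at 447 ± 474 and AEBP1 (chr7:44104345-44114562) was lowest at 88.1 ± 52.9 per kilobase. These last levels overlapped, because ELN varied widely between the libraries.

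FN1 was first and AEBP1 last in the controls of the other experiments too, on the scale of each. In Control3 the order after FN1 was DCN, THBS1 and LUM, and FBN1 was the lowest of the 8 genes above ELN and AEBP1. FN1 and DCN overlapped there, because FN1 varied widely between the libraries. In Control6 the levels of POSTN, LUM and BGN were 30.9 ± 3.3, 68.8 ± 2.0 and 107 ± 18 per kilobase, with AEBP1 at 4.10 ± 5.05. FN1 was at 40679 ± 6234 per kilobase there. The 3 experiments were normalised separately, so a level in one cannot be set against a level in another.

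**Figure D1:**
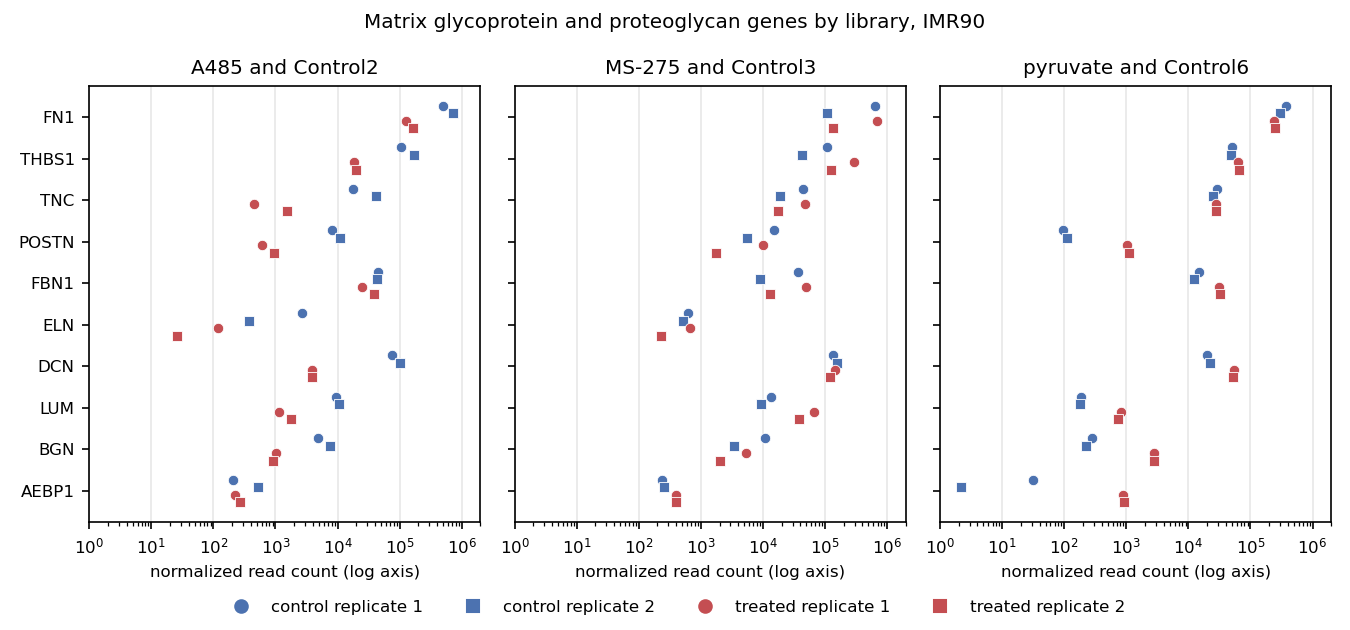
Normalised read count (log axis) of each gene in every IMR90 library, with control libraries in blue and treated libraries in red, circles for replicate 1 and squares for replicate 2. After A485 the treated libraries of 9 of 10 genes lie below both controls, MS-275 and Control3 overlap for 7 of 10 genes, and AEBP1 lies at 31.4 and 2.17 in Control6 and at 888 and 935 with pyruvate.

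A485 lowered most of these genes. Of the 10 genes, 7 were called lower and 0 higher, where 7.06% of the 16084 genes tested were called lower and 3.31% higher. The fall was largest for TNC and DCN, and FBN1 and AEBP1 were not called. The median log2 fold change of the 10 genes was -2.81, against 0.01 over all genes tested. In 9 of the 10 genes both A485 libraries lay below both controls, a pattern seen in 30.7% of all genes tested, and AEBP1 was the exception.

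Among the glycoproteins that tie cells to matrix, FN1 was at 493873 and 712926 normalised counts in the control libraries and at 126774 and 165749 after A485. The groups did not overlap, and its log2 fold change was -2.03 ± 0.38 (SE, n = 2 per group; limma, Benjamini-Hochberg adjusted p = 0.0244). THBS1 (chr15:39581079-39599466) was at 104236 and 171244 in control and at 18172 and 19481 after A485, with a log2 fold change of -2.83 ± 0.29 (limma adjusted p = 0.00461). The treated libraries of THBS1 lay close together, and its controls were further apart than that. TNC (chr9:115019575-115118207) was at 17804 and 41996 in control and at 458 and 1557 after A485. This was the largest fall of the list, -5.02 ± 0.64 on the log2 scale (limma adjusted p = 0.00835), although libraries of the same group differed by over 2-fold. POSTN (chr13:37562583-37598844) was at 8016 and 10888 in control and at 596 and 954 after A485, a log2 fold change of -3.63 ± 0.28 (limma adjusted p = 0.00239).

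The small leucine-rich proteoglycans fell together. DCN (chr12:91140484-91183217), at 74843 and 102927 normalised counts in control, was at 3906 and 3867 after A485. Its log2 fold change was -4.50 ± 0.21, with the smallest adjusted p of the list (limma, 0.000888). LUM (chr12:91102629-91111494), which lies 28989 bases from DCN on the same strand, was at 9383 and 10481 in control and at 1154 and 1767 after A485. LUM fell less than its neighbour, by 2.80 ± 0.24 on the log2 scale (limma adjusted p = 0.00271). BGN (chrX:153494980-153509546) was at 4837 and 7580 in control and at 1011 and 899.6 after A485, a log2 fold change of -2.67 ± 0.25 (limma adjusted p = 0.00358). No A485 library overlapped a control library in any of the 3 genes.

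The unequal falls changed the make-up of this family within each library, a ratio that no scaling of libraries can alter. There were 12.5 and 10.2 LUM counts per 100 DCN counts in the control libraries, and 29.5 and 45.7 after A485. BGN stood at 6.46 and 7.36 per 100 DCN counts in control and at 25.9 and 23.3 after A485. In the same libraries FBN1 was at 9.09 and 6.02 counts per 100 FN1 counts in control and at 19.7 and 23.6 after A485. THBS1 went the other way, at 21.1 and 24.0 counts per 100 FN1 counts in control and at 14.3 and 11.8 after A485. None of these ratios overlapped between the groups, and how often the ratios of other gene pairs part in this way was not counted.

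The elastic fibre genes were not called. FBN1 (chr15:48408313-48645721) was at 44906 and 42920 normalised counts in control and at 25030 and 39065 after A485. Its log2 fold change was -0.49 ± 0.27 (limma adjusted p = 0.272), and the second A485 library lay just under the controls. ELN (chr7:74027789-74069907) was at 2656 and 381 in control and at 121 and 25.8 after A485, a log2 fold change of -4.14 ± 1.06 (limma adjusted p = 0.0559). The ELN libraries of each group were far apart, and the lower control stood above both treated libraries. ELN lay near the threshold, and DESeq2, quantile normalization, equal library totals and a pseudocount of 10 called it lower. AEBP1 was at 208 and 514 in control and at 223 and 264 after A485. Its log2 fold change was -0.43 ± 0.46 (limma adjusted p = 0.577), the groups overlapped, and with the second control library left out the value turned to 0.22.

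The calls rested on both A485 libraries. Without the first A485 library 3 of the 7 calls were left (DCN, LUM and POSTN), and without the second 4 (these and TNC). FN1 lost its call whichever of the 4 libraries was left out, with log2 fold changes from -2.30 to -1.77. ELN was called lower without the second control library, at -5.54 (limma adjusted p = 0.0286). The fibroblast markers moved with these genes: 7 of the 10 were called lower, and their summed level went from 1348432 and 1567777 normalised counts to 447087 and 533166. The smooth muscle markers, of which 4 of 5 had values, went from 22842 and 21828 to 2067 and 1881 in sum, and the epithelial markers, 5 of 8 with values, from 2820 and 3172 to 1319 and 1662. Among these KRT18 and KRT19 were called lower and EPCAM higher, and of the endothelial markers TEK and VWF were called lower. In bulk samples fewer cells of a type and less RNA per cell cannot be told apart, and the part of these markers in the result was not tested.

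**Figure D2:**
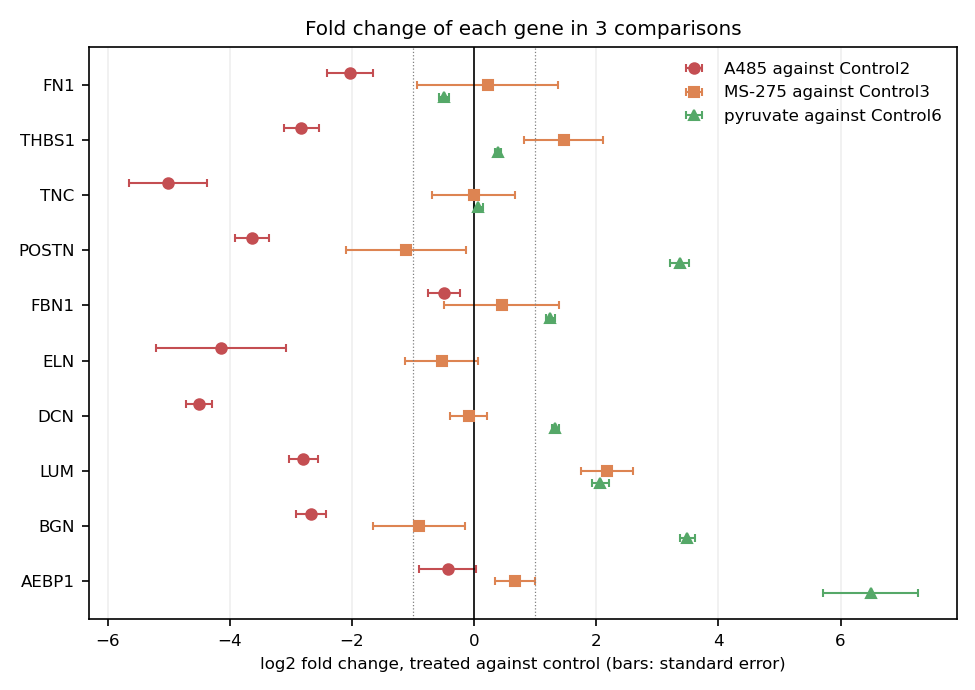
Log2 fold change of each gene (horizontal axis, bars are standard errors, n = 2 per group) for A485 against Control2 (circles), MS-275 against Control3 (squares) and pyruvate against Control6 (triangles), with dotted lines at -1 and 1. The A485 values lie between -5.02 and -0.43, the bars of MS-275 are wide, and with pyruvate AEBP1 stands furthest to the right at 6.49.

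Some of the other matrix genes were called lower with A485 as well, and none of 4 lists had more than 1 gene called higher. The counts below stand beside 7.06% of all genes called lower. Of 15 elastic fibre partners tested, 5 were called lower, with MFAP4 at a log2 fold change of -3.16, the TGF-β binding protein LTBP1 at -2.60 and the fibulin FBLN2 at -2.41. Their median was -0.98. Of 10 other proteoglycans 4 were called lower, with a median of -1.98. Versican (VCAN) was at 13454 and 12375 normalised counts in control and at 1869 and 1888 after A485. Serglycin (SRGN) had a log2 fold change of -2.54, and aggrecan (ACAN) went from 32.1 and 67.3 to 1.69 and 0. Of 14 other matricellular genes 7 were called lower, with a median of -1.83, led by CCN3 (-5.27), TGFBI (-3.67) and CTHRC1 (-3.62). Of 13 basement membrane genes 3 were called lower, with a median of -0.79, namely the laminin chains LAMA4 (-5.10) and LAMB1 (-2.18) and the nidogen NID2 (-4.51), while LAMB2 was called higher.

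MS-275 gave no call in the fit without the replicate number. None of the 10 genes and 0% of the 15883 genes tested were called, while 10.9% of all genes and 1 of the 10 had an unadjusted limma p under 0.05. Control3 libraries differed by more than 1 on the log2 scale in 24.7% of genes. The second library of each group was the lower one by more than that in 6 of the 10 genes (FN1, POSTN, FBN1, BGN, THBS1 and TNC), and in 11.9% of all genes. FN1 itself was 5.98-fold higher in the first control library than in the second, and 5.09-fold between the MS-275 libraries. The differences are therefore also given within each replicate number, as a description, since no label says that the numbers pair the libraries.

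LUM and THBS1 were the genes that stood highest with MS-275. LUM was at 13575 and 9223 normalised counts in control and at 67079 and 38191 after MS-275, so both treated libraries lay above both controls. It was higher by 2.30 and 2.05 on the log2 scale within the numbers, with a fitted log2 fold change of 2.18 ± 0.42 (limma adjusted p = 0.234). Without the first Control3 library LUM was called higher, at 2.46 (limma adjusted p = 0.0208). THBS1 was at 107550 and 42646 in control and at 287958 and 122452 after MS-275. It was higher by 1.42 and 1.52 within the numbers, and the fit gave 1.47 ± 0.65 (limma adjusted p = 0.535). Higher within both numbers by more than 1 were thus 2 of the 10 genes, and 6.81% of all genes.

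AEBP1 showed little spread in this experiment. It was at 236 and 256 normalised counts in control and at 394 and 392 after MS-275, higher by 0.74 and 0.61 on the log2 scale within the numbers (fit 0.68 ± 0.33, limma adjusted p = 0.588). With LUM and THBS1 it was 1 of 3 genes whose MS-275 libraries both lay above both controls, a pattern found in 19.5% of all genes. POSTN and BGN were lower within both numbers by more than 0.58, as were 11.3% of all genes. POSTN was at 15184 and 5497 in control and at 10076 and 1769 after MS-275, which is -0.59 and -1.64 within the numbers. BGN was at 10744 and 3453 in control and at 5311 and 2004 after MS-275, which is -1.02 and -0.78, and for both genes the groups overlapped.

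The other members were nearer to their controls. FN1, at 637710 and 106613 normalised counts in control and 686570 and 134761 after MS-275, differed by 0.11 and 0.34 within the numbers. FBN1, at 36656 and 9080 in control and 49051 and 12777 after MS-275, differed by 0.42 and 0.49. DCN, the most even of the abundant members between control libraries, was at 132283 and 153280 in control and at 146955 and 122070 after MS-275. For DCN, TNC and ELN the differences within the numbers had opposite signs. TNC was at 44848 and 18574 in control and at 47180 and 17509 after MS-275, and ELN at 630 and 513 in control and at 675 and 229 after MS-275.

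The ratio of LUM to DCN within each library was higher with MS-275, although neither gene was called in the fit without the replicate number. There were 10.3 and 6.02 LUM counts per 100 DCN counts in Control3 and 45.6 and 31.3 after MS-275. THBS1 was at 16.9 and 40.0 counts per 100 FN1 counts in Control3 and at 41.9 and 90.9 after MS-275. Neither of these ratios overlapped between the groups, although the lower treated value of THBS1 lay just above the higher control. How often the ratios of other gene pairs part in this way with MS-275 was not counted. BGN, at 8.12 and 2.25 per 100 DCN counts in Control3 and at 3.61 and 1.64 after MS-275, did overlap. So did FBN1, at 5.75 and 8.52 per 100 FN1 counts in Control3 and at 7.14 and 9.48 after MS-275. In the 4 lists of other matrix genes none of the 15, 11, 17 and 14 genes tested was called, and their medians ran from -0.21 for elastic fibre partners to 1.0 for matricellular genes. The summed fibroblast markers were at 1262192 and 726365 normalised counts in control and at 1032383 and 567400 after MS-275. This sum was lower in the second library of each group, as FN1 was. The markers did not all follow it, since VIM, THY1 and S100A4 were higher in the second library of each group and the others lower.

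**Figure D3:**
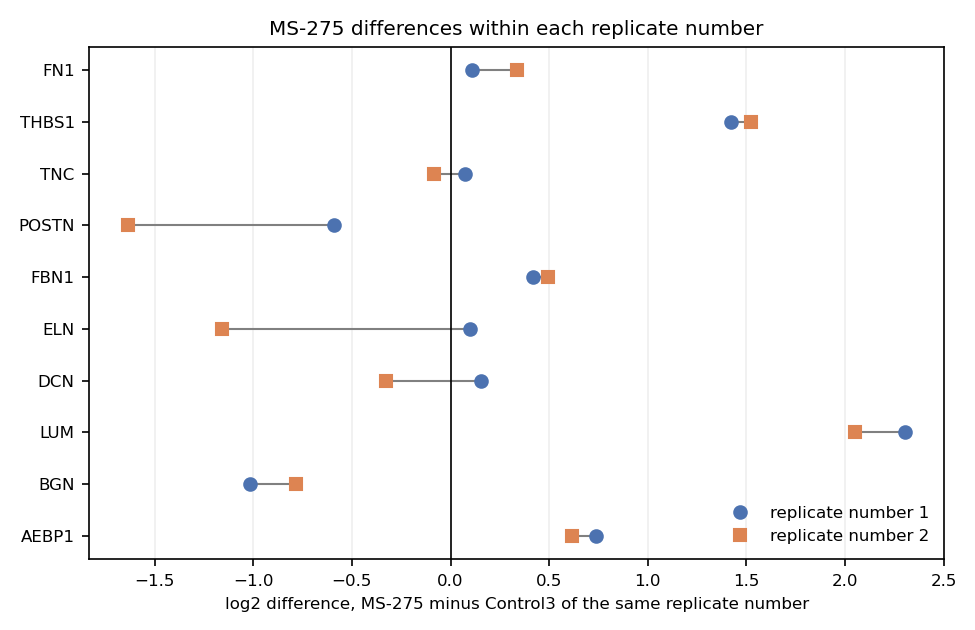
Log2 difference between MS-275 and Control3 libraries of the same replicate number, for each gene (circles, number 1; squares, number 2; a line joins them). LUM (2.30 and 2.05) and THBS1 (1.42 and 1.52) lie to the right for both numbers, POSTN and BGN to the left, and ELN, DCN and TNC straddle 0.

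The effects of A485 and MS-275 differed for LUM, DCN and THBS1. The difference was tested as the A485 effect minus the MS-275 effect over 8 libraries, with each effect taken within its own experiment. Of the 10 genes 3 were called lower with A485, where 3.2% of 15130 genes tested were called lower and 0.608% higher. LUM, with effects of -2.80 and 2.18, differed by -4.97 ± 0.52 (SE, limma, Benjamini-Hochberg adjusted p = 0.00506). THBS1, with effects of -2.83 and 1.47, differed by -4.30 ± 0.79 (limma adjusted p = 0.0310). Its call was lost when any one of 6 of the 8 libraries was left out, all but the first Control3 and the second MS-275 library, with differences from -4.66 to -3.63. DCN, with effects of -4.50 and -0.09, differed by -4.41 ± 0.39 (limma adjusted p = 0.00262). TNC, at -5.01 ± 1.09, did not pass (limma adjusted p = 0.0529), though it did without the first Control3 or the second MS-275 library, and neither did the others, whose adjusted p lay between 0.259 for ELN and 0.739 for FBN1.

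With pyruvate 6 of the 9 genes listed were called higher (AEBP1, BGN, POSTN, LUM, DCN and FBN1) and 0 lower, where 31% of the 12013 genes tested were called higher and 23.1% lower. Nothing is read from this count, because the list was completed from this comparison. The pyruvate libraries of 7 genes lay above both controls, as in 45.2% of all genes, those of FN1 below, as in 45.3%, and those of TNC between. Replicates lay close together in this experiment for all but AEBP1.

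AEBP1 had the largest log2 fold change of the 9 genes with pyruvate. It was at 31.4 and 2.17 normalised counts in Control6, which are 32 and 2 reads, and at 888 and 935 with pyruvate, which are 903 and 1012 reads. Against the first control library the first pyruvate library was 28.2-fold higher (95% exact interval 19.9 to 41.5), and against the second the second was 431-fold higher (119 to 3562). The intervals cover counting error only, and they are no test of the rise, on which AEBP1 was selected. No label says that the replicate numbers pair these libraries. The fitted log2 fold change was 6.49 ± 0.77 on the log2(value + 1) scale.

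Among the proteoglycans BGN was at 283 and 222 normalised counts in Control6 and at 2823 and 2844 with pyruvate, a log2 fold change of 3.49 ± 0.12. LUM was at 188 and 180 in control and at 829 and 725 with pyruvate, a log2 fold change of 2.07 ± 0.15. Both were far below DCN, which was at 20180 and 22584 in control and at 53970 and 53281 with pyruvate (1.33 ± 0.06). There were 1.40 and 0.98 BGN counts per 100 DCN counts in control and 5.23 and 5.34 with pyruvate. POSTN was at 94.3 and 110 in control and at 1015 and 1107 with pyruvate, a log2 fold change of 3.37 ± 0.16.

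The abundant glycoproteins moved less. FBN1 was at 14649 and 12225 normalised counts in control and at 31629 and 31796 with pyruvate (log2 fold change 1.24 ± 0.07). THBS1 was at 49855 and 48708 in control and at 63799 and 65176 with pyruvate (0.39 ± 0.05). TNC was at 28836 and 24465 in control and at 27916 and 27882 with pyruvate (0.07 ± 0.07), so its groups overlapped. FN1 was the one member that was lower, at 378282 and 304318 in control and at 238512 and 246431 with pyruvate (-0.48 ± 0.08).

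Base composition moved with the pyruvate fold changes, and the genes lie at both ends of it. Across 11888 genes the fold change and the GC content of the transcript had a Spearman correlation of -0.72, as a description over genes of the same 4 libraries, against -0.11 for A485 and -0.02 for MS-275. With transcript length the correlation was 0.33 for pyruvate, 0.004 for A485 and 0.005 for MS-275. In 10 bins of GC content the median log2 fold change was 1.72 in the lowest and -1.21 in the highest. LUM, DCN and POSTN have transcripts of 34.9%, 38.2% and 38.8% GC, where the bin medians were 1.72, 1.72 and 1.90. DCN at 1.33 was thus below the median of its bin. AEBP1 and BGN have 62.4% and 60.9% GC, where the medians were -1.21 and -1.04, and both moved the other way from their bins.

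Once each library was freed of its trend on the length and GC content of transcripts, AEBP1, BGN and POSTN were at log2 fold changes of 7.37, 4.55 and 1.71. These 3 passed the thresholds of a call, as 14.8% of all genes did in that direction, and nothing is read from this. LUM was then at 0.70 and FBN1 at 0.46. DCN turned from 1.33 to -0.68 and THBS1 from 0.39 to -0.62. Length and GC content were removed together, so their shares in these shifts are not separated. The part of base composition and of length in the fold changes was not tested.

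**Figure D4:**
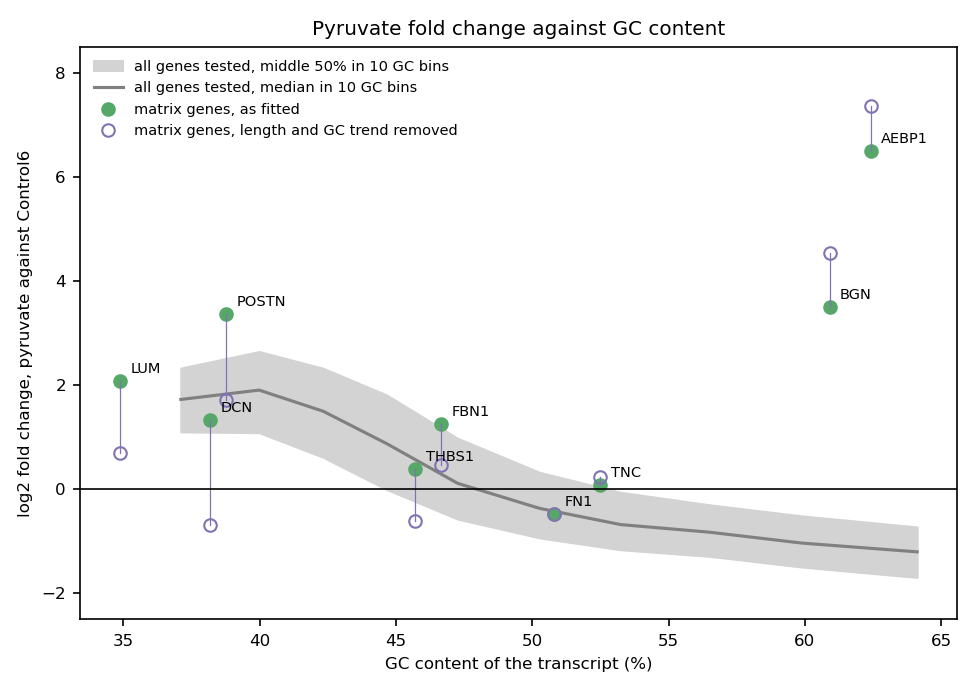
Log2 fold change with pyruvate against Control6 (vertical axis) by GC content of the transcript in percent (horizontal axis), with the median (line) and the middle 50% (grey) of all genes tested in 10 bins, the 9 genes as fitted (filled) and with the trend removed (open). AEBP1 (6.49) and BGN (3.49) lie far above the grey band at high GC, and DCN falls below 0 once the trend is removed.

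Other matrix genes were called in both directions with pyruvate, as were 31% (higher) and 23.1% (lower) of all genes, and these values too are descriptions. Of 13 matricellular genes 5 were called higher and 2 lower, with CCN4 at a log2 fold change of 3.95, CTHRC1 at 3.91 and SMOC1 at 2.10. Of 8 other proteoglycans 2 were called in each direction, with SPOCK1 at 4.49, VCAN at 3.56 and agrin (AGRN) at -1.31. Of 13 elastic fibre partners MFAP2 was higher (2.21), and EFEMP2 (-1.59) and LTBP3 (-1.58) were lower. Of 13 basement membrane genes 2 were called higher and 5 lower, among them the laminin chains LAMB2 (-1.77) and LAMB3 (-1.53). The fibroblast markers went from 1028423 and 999412 to 814718 and 820338 normalised counts in sum, and the smooth muscle markers from 28186 and 28967 to 13030 and 13148. Within the fibroblast sum FAP and PDGFRA were called higher and THY1 lower. The endothelial markers went from 481 and 358 to 1469 and 1448 in sum, with TEK called higher and VWF lower.

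Over the 12 libraries AEBP1 varied most in the pyruvate experiment. After the mean of each experiment was subtracted from the log2 values, the genes most like it among 10967 were NAB1, ZNF256 and C16orf87, with Pearson r of 0.98, 0.97 and 0.97. NAB1, a transcriptional corepressor, was at 40.3 and 13.0 normalised counts in Control6 and at 428 and 389 with pyruvate. Like AEBP1, it was lower in the second of the Control6 libraries than in the first, as were ZNF256 and C16orf87. The other members were not near it: BGN, the nearest, had r = 0.72 and ranked 2503 among these genes, POSTN (r = 0.58) ranked 3443 and LUM (r = 0.56) 3597, and FN1 was furthest of the members, at -0.06. These are descriptions over 12 libraries of 3 experiments. AEBP1 was selected on its rise with pyruvate, so r mostly restates the difference between Control6 and pyruvate. NAB1, ZNF256 and C16orf87 were all higher in both pyruvate libraries than in both Control6 libraries. Genes compared needed a mean of at least 50 in each experiment. With pyruvate, AEBP1 (31.4 and 2.17 in Control6), NAB1 and C16orf87 (59.9 and 32.6 in Control6) reached it only through their treated libraries. No further likeness is read from r.

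The 10 genes took a sizeable share of each library, most of it FN1. They held 1.76% and 2.30% of reads in Control2 and 0.53% and 0.65% after A485. They held 2.39% and 0.84% in Control3, and 2.87% and 0.97% after MS-275, so the libraries of a group differed more than the groups did. With pyruvate the share of the 9 genes listed, without ELN, was 1.77% and 1.81%, against 1.66% and 1.40% in Control6. FN1 alone took between 0.26% and 1.52% of the reads of a library, and in the second libraries of Control3 and MS-275 it held less than the other genes of the list together.

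**Figure D5:**
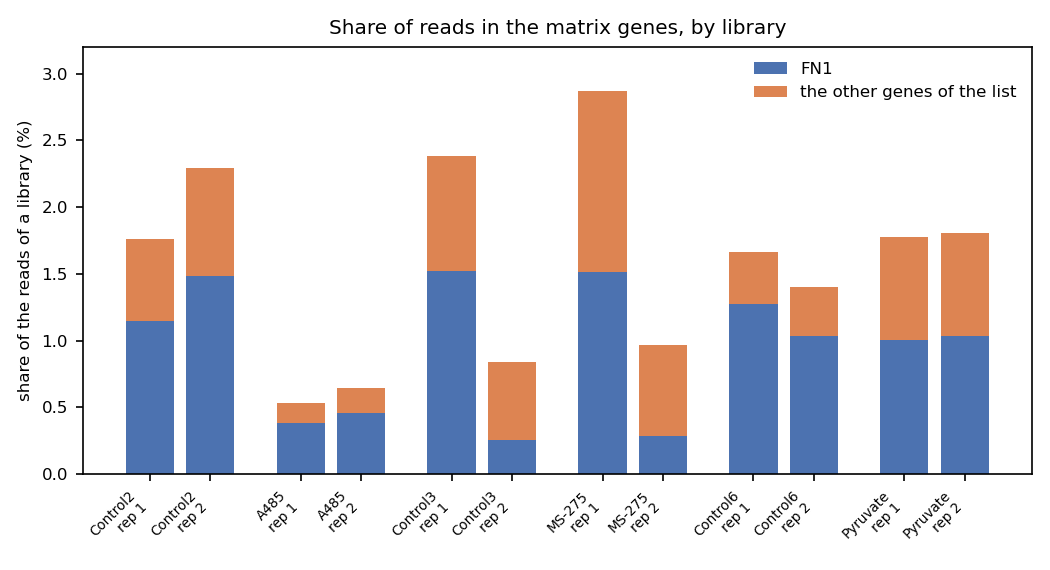
Share of the reads of each library (percent, bars from 0) that fell in the 10 genes, with FN1 in blue and the other genes in orange. For pyruvate and Control6 the bars hold 9 genes, without ELN. The A485 libraries are lowest at 0.53% and 0.65%, and the second libraries of Control3 and MS-275 hold 0.84% and 0.97%, far less than the first libraries of those groups.

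Some of the genes overlap others in the annotation (GENCODE 44, hg38), and the strand setting of the counting is not given in the sources used here. BGN shares 537 bases with HAUS7 on the opposite strand, whose values were at most 31.0 normalised counts in the A485 and MS-275 experiments. THBS1 shares 11110 bases with FSIP1 on the opposite strand, whose values were at most 51.4 in these experiments. HAUS7 and FSIP1 had no values in the pyruvate experiment. The transcript THBS1-IT1 lies on the same strand as THBS1 and overlaps 0 of its exons, at chr15:39586561-39587293, and it was singled out after its values were seen. It was at 246 and 344 normalised counts in Control2 and at 21.9 and 3.56 after A485, and at 197 and 149 in Control3 and 1082 and 885 after MS-275, on the same side of its controls as THBS1 in both comparisons. With pyruvate it was at 65.9 and 48.0, against 1053 and 1149 in Control6, while the values of THBS1 were higher with pyruvate.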

How the data were processed

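Bulk RNA-seq libraries of IMR90 cells (12 libraries, 6 groups of 2, grouped by title) were analysed, and the 8 libraries of mouse muscle were not. The authors trimmed reads with Trim Galore (version 0.6.10), aligned them to hg38 with HISAT2 (version 2.2.1), counted them with featureCounts (version 2.0.6) and normalised them with DESeq2 (version 1.34.0), per the labels and methods. The deposited values are a signal, read counts divided by 1 size factor per library. The annotation and strand setting are not given in the sources used here. One scale factor per library returned whole reads in 100% of values (tolerance 1e-04). Replicates differed beyond sampling noise in a chi-square test, and all were kept.

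Genes with a mean of at least 10 were tested on log2(value + 1), a scale that understates the change of low genes, with limma (version 3.58.1, R 4.3.3; eBayes with an intensity trend, no covariate, two-sided) and Benjamini-Hochberg adjustment over all genes tested. Each treatment was fitted with its own control, and the difference of the A485 and MS-275 effects over their 8 libraries. Depth was 24179065 to 46971227 reads. On simulated data limma recovered 100% of changes of 2 on the log2 scale for A485 (15840 genes) and 31% for MS-275 (15607 genes). Alternatives covered the pseudocount, filter, scaling, fold minimum, prior, replicate block, each library left out, 1 fit over 12 libraries, removal of a length and GC trend, and, for A485, tests of recovered reads in DESeq2 (version 1.42.0) and edgeR (version 4.0.16).

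The members and gene lists were chosen with earlier results of these data known. The text names the 10 members, at most 3 called genes per matrix list and comparison with the largest fold change, the 3 genes most like AEBP1 (Pearson r over 12 libraries, mean of at least 50 in each experiment), and markers. Of the genes so named 1 is not reported here, and counts keep it. Positions, lengths and GC content came from GENCODE 44, which matched 17250 of 17554 symbols (98.3%).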

Additional observations from a re-analysis of the deposited data

How the results depend on the processing

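Of the values for single genes, 636 stayed on their side of the threshold (with pyruvate, within the replicate spread) under an alternative. For pyruvate part of this was fixed in advance. Leaving out 1 library cannot move a pyruvate value beyond that spread. A changed filter, fold minimum or prior and the replicate block leave the pyruvate fold change as it was. These settings therefore say nothing on how stable the pyruvate values are. Of the rest, 18 lost a call, 19 gained one, 22 moved by more than the spread and 16 reversed. Of the counts of genes called, 137 stayed within 1.5 times their value, counts of 0 that stayed 0 among them, and 9 did not. Leaving out each library in turn left 3 to 7 genes called lower with A485 and 0 to 1 called higher with MS-275, LUM when the first Control3 library was left out. ELN was also called lower with A485 by DESeq2, which called 8 genes, with a pseudocount of 10, quantile normalization, equal library totals and the replicate block, and edgeR called 7 genes. One fit over 12 libraries called 1 gene higher with MS-275, LUM. With the replicate block 2 genes were called higher (LUM and THBS1) and 1 lower (POSTN) with MS-275, where 7.74% and 6% of genes were, and 8 genes were called lower in the difference of A485 and MS-275. Deviations of same-numbered libraries correlated at 0.73 for MS-275, 0.32 for A485 and 0.002 for pyruvate over all genes, and with 2 pairs and no label the numbers were not taken as a pairing. With pyruvate, removal of the length and GC trend left 3 genes called higher, and 1 gene, FN1, was lower with no fold minimum. FBN1 reversed with quantile normalization, to 0.27 for A485 and 0.010 for the difference. DCN reversed to -0.68 and THBS1, not called, went to -0.62 with pyruvate on removal of the trend, and TNC went to -0.05 without the second Control6 library. Leaving out libraries reversed AEBP1 with A485 (-1.08 to 0.22), FBN1 in the difference (-1.95 to 0.061) and, with MS-275, TNC (-0.72 to 0.71), FN1 (-1.07 to 1.51), FBN1 (-0.55 to 1.46), DCN (-0.22 to 0.045), POSTN (-2.37 to 0.14) and ELN (-1.31 to 0.25). The causes were not tested. With equal totals the median over all genes was 0.40 for A485 and 0.30 for pyruvate. Count tests of MS-275 and pyruvate were planned but not run. Having 2 libraries a group limits the precision throughout.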
